A study of Mus musculus with 6 samples.

Results

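Nestin (*Nes*) and the genes of 7 other intermediate filament proteins of the nervous system (*Vim*, *Synm*, *Ina*, *Nefl*, *Nefm*, *Nefh* and *Prph*) were followed in cultured neural stem cells (NSCs). The 8 genes were taken by name from a deposited table of 53378 genes, and each name had a row. They were chosen with earlier results of these data known. The cells came from the embryonic cortex of mice at E14.5, grew as neurospheres in medium with bFGF and EGF, and all carried *Tbl1xr1* flox/flox alleles, in which LoxP sites flank exon V of a gene for a subunit of the NCOR corepressor complex. They received a lentivirus with GFP only (control libraries 1, 1_1 and 2) or with Cre-GFP (KO libraries 2, 2_2 and 3), and GFP+ cells were sorted. All 6 libraries therefore share the floxed alleles, a lentiviral infection and the sort, but only the KO libraries received Cre. An effect of Cre itself and an effect of the lost exon cannot be told apart in this design. The time between infection and harvest is not given in the sources used here.

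Intermediate filament proteins assemble into flexible ropes that carry mechanical load through a cell, and each cell type makes its own set of them. Neural stem cells are known for nestin filaments that also hold vimentin, whereas neurons build theirs from alpha-internexin and the neurofilament triplet, and peripheral neurons add peripherin. Nestin does not form filaments alone and needs a partner such as vimentin, and the loss of nestin with the gain of neurofilaments or GFAP is a textbook sign of differentiation.

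Between 7510615 and 14828100 reads fell on genes in a library, with a median of 7762821 in control and 12210170 in KO. Values are normalized read counts, in which each read count is divided by a size factor of its library, and differences are on the log2(normalized count + 1) scale. The targeted gene *Tbl1xr1* was not lower in the libraries labelled KO, with 2477 ± 268 normalized counts in control and 3381 ± 440 in KO (SD, n = 3 each; log2 difference 0.45, SE 0.14, limma adjusted p = 0.0600). A count over the whole gene does not isolate exon V, so the count did not check the labels. The study reported correct genotypes and the absence of *Tbl1xr1* mRNA and protein in the sorted cells, by separate assays that were not analysed here. The count over the whole gene did not show that loss of mRNA. KO below always means the libraries labelled so. The labels do not say whether libraries numbered alike came from separate cultures, so p-values measure only the spread between these libraries, which may be technical.

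The label of the cells was checked against 10 neural stem cell markers. All 10 were measured above the filter of a mean of 10 normalized counts, and their summed level was 21865 to 24947 in control and 28311 to 29903 in KO. *Sox2*, a transcription factor of neural progenitors, and *Fabp7*, a fatty acid binding protein of radial glia, had the highest means. *Prom1* rests on 5 to 24 reads a library. None of the 10 passed the test in either direction (median log2 difference 0.23). *Nes* and *Sox1*, described below, were not among the 10. Both were called lower in KO (log2 difference -0.85 and -2.27, limma adjusted p = 0.00384 and 3.66e-05). Without KO 2, *Hes1* was called lower (-0.52, limma adjusted p = 0.0374) and *Sox2* higher (0.59, adjusted p = 0.0268), and without KO 3 *Fabp7* was called higher (0.52, adjusted p = 0.0268).

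Of the 8 filament genes, 4 passed the filter on low values (*Nes*, *Vim*, *Synm* and *Ina*) and 4 did not (*Nefl*, *Nefm*, *Nefh* and *Prph*). A gene was called at an adjusted p under 0.05 (limma, Benjamini-Hochberg over 14840 genes). One filament gene, *Nes*, was called lower in KO, and 0 were called higher. Over all genes tested, 9.96% were called, 5.22% as lower and 4.74% as higher. The groups did not overlap, with KO lower, for *Nes* and *Vim*, and 15.5% of all genes tested showed that pattern.

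**Figure D1:**
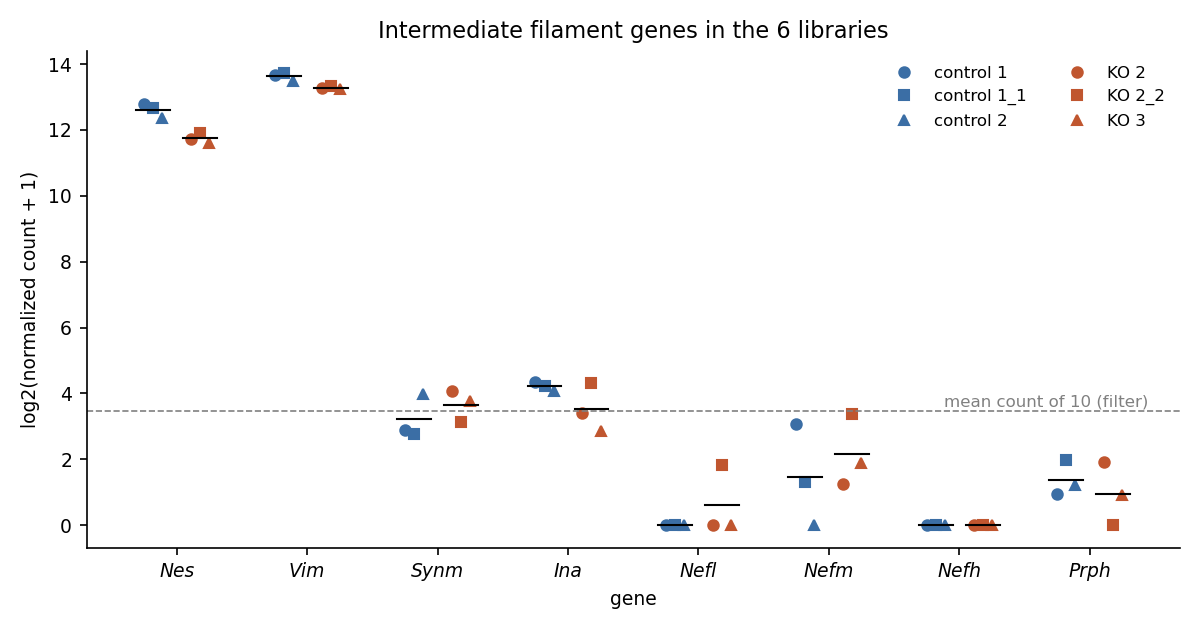
Level of each intermediate filament gene, as log2(normalized count + 1), in the 3 control (blue) and 3 KO (orange) libraries, with a symbol for each library, the group mean as a black line and the filter of a mean count of 10 as a dashed line. *Nes* and *Vim* lie far above the other 6 genes, and their groups do not overlap.

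*Nes* (ENSMUSG00000004891), the class VI filament protein of dividing neural progenitors, lies on chromosome 3 of GRCm38 from 87971093 to 87980451. Its normalized count was 7011 in control 1, 6448 in control 1_1 and 5228 in control 2. It was 3356 in KO 2, 3824 in KO 2_2 and 3124 in KO 3. Every KO library was below every control library, and the control libraries were farther apart than the KO libraries. The mean fell from 6229 ± 912 in control to 3435 ± 357 in KO (SD, n = 3 each), to 55.1% of the control mean. The log2 difference was -0.85 (SE 0.14, 95% interval -1.16 to -0.55, limma adjusted p = 0.00384). With 3 libraries against 3, the exact two-sided permutation p for *Nes* alone was 0.1, the smallest this design allows. *Nes* was among the abundant genes, at rank 242 by mean level. Of the 2036 genes with a mean of at least 1000, 181 were called lower in KO, and 21 (1.03%) had a log2 difference at or below that of *Nes*. In bulk samples, fewer cells with nestin and less nestin RNA per cell cannot be told apart.

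*Vim* (ENSMUSG00000026728), the class III protein vimentin with which nestin co-assembles, lies on chromosome 2 from 13574311 to 13582826. Its normalized count was 12981 in control 1, 13468 in control 1_1 and 11501 in control 2. It was 9975 in KO 2, 10266 in KO 2_2 and 9606 in KO 3. The KO libraries again lay below the control libraries without overlap, by a smaller margin. The mean was 12650.0 ± 1024 in control and 9949 ± 331 in KO (SD, n = 3 each), or 78.6% of the control mean. The log2 difference was -0.34 (SE 0.12, 95% interval -0.61 to -0.07), with an unadjusted limma p of 0.0175 and an adjusted p of 0.105, so *Vim* did not pass the test. The exact two-sided permutation p for *Vim* alone was 0.1, again the smallest possible.

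Because these were the only 2 of the 8 genes expressed at a high level, the 250 bases in front of their annotated starts are shown. They are from RefSeq on GRCm38.p6, both on the plus strand. Capitals mark matches to short promoter motifs that were searched on both strands. The *Nes* window is chr3:87970843-87971092 and the *Vim* window is chr2:13574061-13574310.
Nes: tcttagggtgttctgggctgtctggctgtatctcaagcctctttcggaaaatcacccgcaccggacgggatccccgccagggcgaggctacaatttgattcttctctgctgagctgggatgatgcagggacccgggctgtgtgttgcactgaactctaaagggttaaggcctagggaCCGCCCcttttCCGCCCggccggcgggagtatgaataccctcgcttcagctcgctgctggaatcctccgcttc
Vim: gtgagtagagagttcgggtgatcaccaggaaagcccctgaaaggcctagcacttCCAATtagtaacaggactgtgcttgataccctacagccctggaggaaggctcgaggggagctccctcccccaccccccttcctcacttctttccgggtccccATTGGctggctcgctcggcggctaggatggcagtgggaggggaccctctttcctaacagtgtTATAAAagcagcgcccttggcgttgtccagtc
The *Nes* window held 2 GC boxes (GGGCGG, read here as CCGCCC), 73 and 62 bases before the start, and no match to TATAAA or CCAAT. The *Vim* window held TATAAA 32 bases before the start and a pair of CCAAT boxes, CCAAT at 196 and ATTGG at 94 bases, and no GC box. Among 32851 mouse windows of this length, 32.7% held a GC box, 33.8% a CCAAT box and 12.4% TATAAA. Neither window matched GGCGGGAA (E2F, in 1.86% of windows), TGACTCA (AP-1, 4.46%), AACAAT (SOX, 9.42%) or ATGCAAAT (the POU octamer, 1.6%). The GC content was 58.8% for *Nes* and 58.4% for *Vim*, against a median of 52.4%, with 15 and 8 CpG pairs against a median of 6. Windows were also found for *Synm*, *Ina* and *Prph*. These matches describe letters and were not tested for binding. Sequence outside the windows, including the neural enhancer of *Nes*, was not searched.

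Levels of different genes were compared per kb of annotated exon (6416 bases for *Nes* and 2335 bases for *Vim*). On that scale *Nes* had 971 ± 142 normalized counts per kb in control and 535 ± 55.6 in KO, and *Vim* had 5418 ± 439 and 4261 ± 142 (SD, n = 3 each). Vimentin was therefore the more abundant transcript of the pair in each of the 6 libraries. The ratio of *Vim* to *Nes* per kb was 5.09, 5.74 and 6.05 in control 1, 1_1 and 2, and 8.17, 7.38 and 8.45 in KO 2, 2_2 and 3. The ratio was higher in every KO library than in any control library, with a mean of 5.62 ± 0.489 in control (SD, n = 3).

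**Figure D2:**
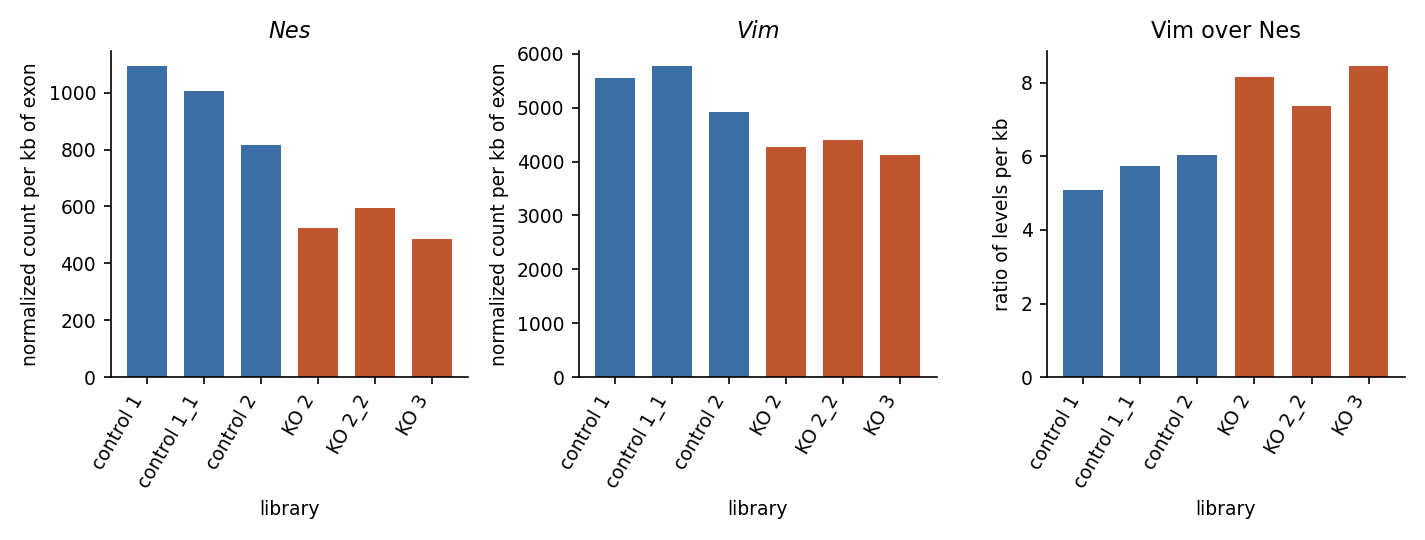
Normalized count per kb of exon of *Nes* (left) and *Vim* (middle) and the ratio of *Vim* to *Nes* on that scale (right), as 1 bar for each control (blue) and KO (orange) library, with all axes from 0. The ratio runs from 5.09 to 6.05 in control and from 7.38 to 8.45 in KO.

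Of the per kb level summed over the 8 genes, *Nes* and *Vim* together made 99.8% to 99.9% in every library. That sum was 6396 ± 565 in control and 4803 ± 198 in KO (SD, n = 3 each). *Nes* made 15.1% ± 1.15 of it in control and 11.1% ± 0.701 in KO, and *Vim* 84.7% ± 1.15 and 88.7% ± 0.744. In both groups the RNA of these 8 genes was thus mostly vimentin, with nestin next. The remaining 6 genes summed to 7.50 to 8.52 normalized counts per kb in control and 4.46 to 9.22 in KO.

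*Synm* (ENSMUSG00000030554, chromosome 7, 67730161 to 67759742) codes for synemin, a large filament protein that joins vimentin networks to other structures. Its normalized count was 6.42, 5.85 and 14.7 in control 1, 1_1 and 2, and 15.9, 7.75 and 12.5 in KO 2, 2_2 and 3. The groups overlapped, and the log2 difference was 0.44 (SE 0.51, 95% interval -0.68 to 1.57, limma adjusted p = 0.644). These values rest on 4 to 23 reads a library, and the interval leaves a difference in either direction possible.

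*Ina* (ENSMUSG00000034336, chromosome 19, 47014681 to 47025327) codes for alpha-internexin, which appears in young neurons before the neurofilament triplet. Its normalized count was 19.3, 17.6 and 16.0 in control 1, 1_1 and 2, and 9.70, 18.9 and 6.27 in KO 2, 2_2 and 3. A pair of KO libraries lay below all control libraries, and KO 2_2 lay among them. The means were 17.6 ± 1.63 and 11.6 ± 6.55 (SD, n = 3 each), and the log2 difference of -0.68 (SE 0.46, 95% interval -1.68 to 0.32, limma adjusted p = 0.387) did not pass the test. That difference was -1.07 without KO 2_2 and -0.35 without KO 3, and neither passed. The span of *Ina* shares 456 bases with that of *Nt5c2* on the opposite strand, and the library kit does not mark strand. How reads in such overlaps were counted is not given, so the reads of *Ina* are uncertain. *Nt5c2* had up to 300 reads.

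The neurofilament triplet, which fills mature axons and sets their calibre, was at or near 0. *Nefm* (chromosome 14, 68119545 to 68125004), the medium chain, had 8, 1 and 0 reads in control 1, 1_1 and 2, and 2, 11 and 3 reads in KO 2, 2_2 and 3. *Nefl* (chromosome 14, 68083863 to 68089095), the light chain, had 3 reads in KO 2_2 and 0 in the other libraries. *Nefh* (chromosome 11, 4938754 to 4948064), the heavy chain, had 0 reads in every library. A count of 0 allows up to 3 reads, or 2.08 to 4.39 normalized counts depending on the library, against 3124 to 7011 for *Nes*. This limit covers counting error only. In the GENCODE M1 annotation a *Nefm* transcript spans the whole of *Nefl* on the other strand, so the few reads of these neighbours cannot be assigned firmly.

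*Prph* (chromosome 15, 99053579 to 99058978), the gene for peripherin of peripheral neurons, had 1, 2 and 1 reads in control 1, 1_1 and 2, and 4, 0 and 1 in KO 2, 2_2 and 3. The groups overlapped for *Nefm*, *Nefl* and *Prph*. Without the filter on low values, limma gave adjusted p = 0.702 for *Nefm*, 0.626 for *Nefl* and 0.758 for *Prph*. These 4 genes were under the filter in both groups, and no difference was detectable at this depth.

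Across 16 other ways of processing the values, *Nes* stayed past the threshold each time, with log2 differences of -0.97 to -0.76 and adjusted p of 4.2e-06 to 0.0326. *Vim* stayed short of it each time, with log2 differences of -0.41 to -0.30 and adjusted p of 0.0783 to 0.312. These alternatives included edgeR and DESeq2 on recovered reads and leaving out each library in turn. A limma fit added after seeing the data took the first digit of the replicate number as a block. It compares control 2 with KO 2 and KO 2_2 alone, since the digits 1 and 3 occur in 1 group each, and in it *Nes* was not called (log2 difference -0.55, SE 0.18, adjusted p = 0.182), nor was *Vim* (-0.18, adjusted p = 0.667). The labels do not say that this digit marks a shared culture.

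**Figure D3:**
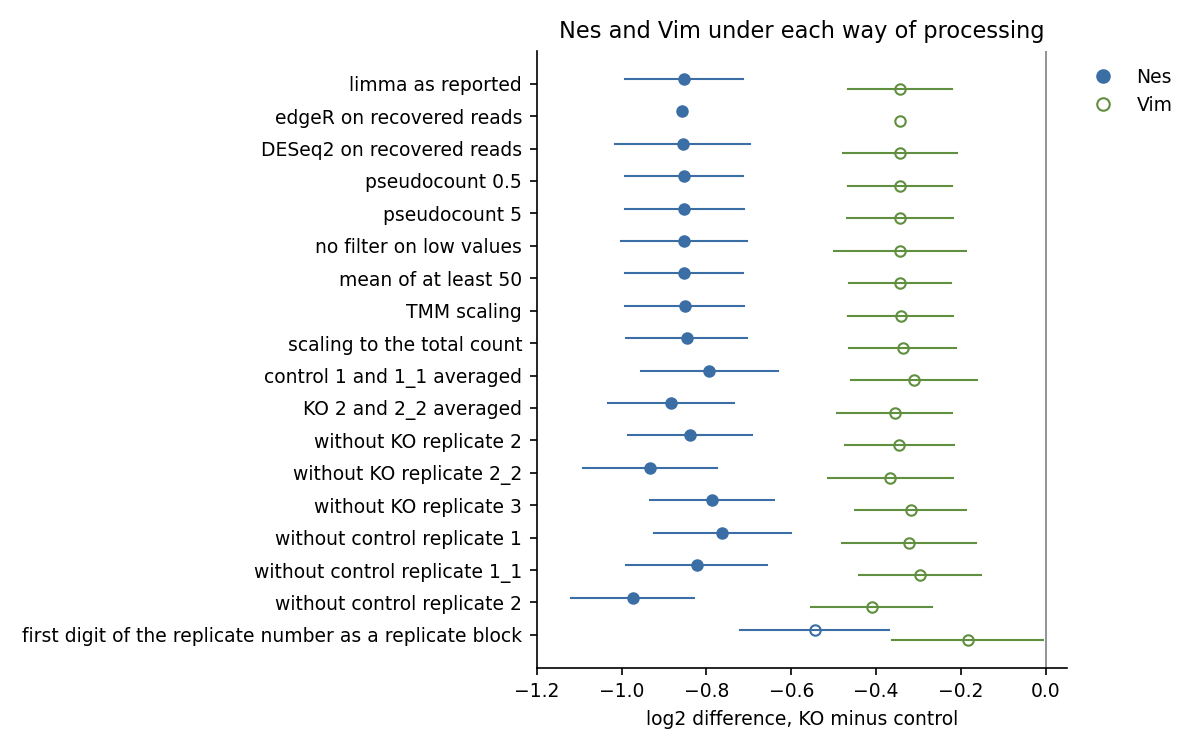
Log2 difference, KO minus control, of *Nes* (blue) and *Vim* (green) under the reported fit, 16 alternatives and the block on the replicate digit, with bars of 1 SE (edgeR gives none), filled where the adjusted p is under 0.05 and open otherwise. *Nes* lies between -0.97 and -0.76 and *Vim* between -0.41 and -0.30, except under the block (-0.55 and -0.18).

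The genes whose pattern over the 6 libraries was most like that of *Nes* were ranked by the root mean square difference of their log2 values, each centred on its own mean, among 11111 genes with a mean of at least 50. The nearest was *Exo1*, a gene for a DNA exonuclease, at 0.079, with means of 245 ± 43.0 in control and 135 ± 26.8 in KO (limma adjusted p = 0.0211, and 0.119 without control 1 and 0.0855 without control 1_1). Next came *Tfrc*, the transferrin receptor, at 0.091 (1247 ± 116 and 643 ± 97.1; SD, n = 3 each), and *Map4k3*, a protein kinase, at 0.092, with 317 to 353 in control and 167 to 204 in KO. Nearness to a gene that is itself lower in KO fixes their direction, so it is a description with no test.

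**Figure D4:**
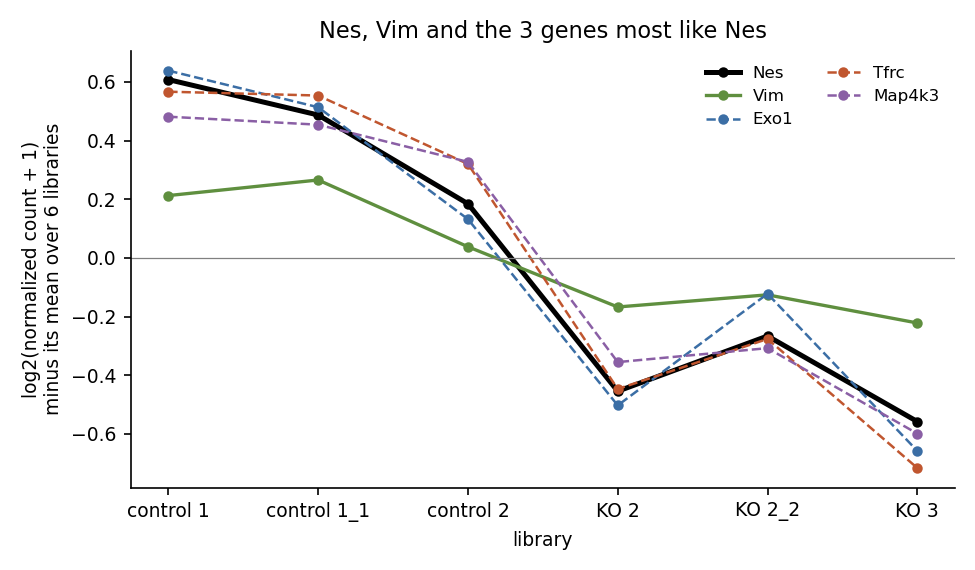
Log2(normalized count + 1) of *Nes*, *Vim*, *Exo1*, *Tfrc* and *Map4k3* in each library, minus the mean of the gene over the 6 libraries; lines only join the points of a gene. The 3 nearest genes track *Nes* with root mean square differences of 0.079 to 0.092, while *Vim* spans a narrower range.

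The lists described next were chosen with earlier results of these data known, and 9.96% of all genes tested were called. Other intermediate filament genes gave a mixed picture. Of 13 listed, 5 passed the filter, 2 were called lower and 1 higher, with a median log2 difference of -0.43 against -0.001 over all genes tested. The B-type lamins of the nuclear envelope were lower, *Lmnb1* from 7666 ± 443 to 5685 ± 400 (log2 difference -0.43, limma adjusted p = 0.0416) and *Lmnb2* from 306 ± 61.2 to 181 ± 35.2 (-0.75, adjusted p = 0.0372). *Bfsp2*, a beaded filament gene known from the eye lens, was higher (53.8 ± 12.6 and 108 ± 19.1, log2 difference 1.00, adjusted p = 0.0259). These 3 calls were lost in 5 to 8 of the 16 alternatives. Each was lost without control 1 (adjusted p = 0.192, 0.158 and 0.123 for *Lmnb1*, *Lmnb2* and *Bfsp2*), without control 2 (0.133, 0.156 and 0.0941) and without KO 2_2 (0.149, 0.144 and 0.0867), *Lmnb1* also without control 1_1 (0.0829), and *Lmnb2* and *Bfsp2* also without KO 3 (0.0586 and 0.0634). All 5 keratins listed had 0 reads in every library, and *Gfap*, the astrocyte filament gene, stayed under the filter with 4 reads in control and 17 in KO.

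Among proteins that tie filaments to the rest of the cell, 8 of 12 listed genes passed the filter, 1 was called lower and 1 higher (median log2 difference 0.07). *Plec*, the gene for plectin, which cross-links vimentin and nestin filaments to the cytoskeleton, fell from 278 ± 18.7 to 126 ± 7.84 (log2 difference -1.13, SE 0.15, limma adjusted p = 0.00133). *Dtna*, the gene for dystrobrevin alpha, a partner of synemin in the dystrophin complex, rose from 1590 ± 242 to 2659 ± 368 (0.74, adjusted p = 0.0100, and 0.0519 without control 1_1). *Dst* and *Macf1*, which code for large linkers related to plectin, had log2 differences of 0.10 and 0.04 and were not called.

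Phosphorylation takes intermediate filaments apart, and 13 of the 14 listed kinases and phosphatases that act on them passed the filter, with 3 called lower, 2 higher and a median of 0.02. *Pak1*, a kinase of vimentin, fell from 573 ± 62.5 to 256 ± 7.05 (log2 difference -1.15, limma adjusted p = 0.000617). *Prkaca*, the catalytic subunit of protein kinase A, fell from 5710 ± 507 to 2826 ± 341 (-1.02, adjusted p = 0.000919). *Ppp1ca*, a catalytic subunit of phosphatase 1 that overlaps the antisense gene *Rad9*, had a log2 difference of -0.56 (adjusted p = 0.00852, and 0.0622 without control 1). Its reads are uncertain, since *Rad9* had a mean of 1288 normalized counts against 1354 for *Ppp1ca*. The kit does not mark strand, and how reads in such overlaps were counted is not given. *Prkca*, protein kinase C alpha, rose from 315 ± 28.5 to 616 ± 27.5 (0.97, adjusted p = 0.00127), and *Cdk5r1*, the activator of the nestin kinase CDK5, rose from 481 ± 77.6 to 771 ± 127 (0.68, adjusted p = 0.0241). The call of *Cdk5r1* was lost without control 1 (adjusted p = 0.106) or control 1_1 (0.101). *Cdk1*, the mitotic kinase of nestin and vimentin, differed by -0.68 with overlapping groups (adjusted p = 0.122). Of 10 genes of filament turnover, 9 passed the filter and 0 were called by limma, including the abundant ubiquitin ligase *Stub1* (0.17) and the calpain *Capn2* (0.22). Leaving out KO 2 added calls in limma: *Cdk1* (-1.03, adjusted p = 0.000917) and the mitotic kinase *Plk1* (-0.50, adjusted p = 0.0186) as lower, and *Stub1* (0.50) and the co-chaperone *Bag3* (0.44) as higher, both at adjusted p = 0.0450.

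SOX and POU factors are known to act on the neural enhancer of *Nes*, and all 7 listed passed the filter. *Sox1* was the only one called, falling from 913 ± 126 to 190.5 ± 42.9 (log2 difference -2.27, SE 0.18, limma adjusted p = 3.66e-05). *Sox2* had 6579 ± 1056 and 8732 ± 2498 with overlapping groups (0.38, adjusted p = 0.259). *Pou3f2* had a log2 difference of -0.33 with groups that did not overlap (adjusted p = 0.165), and the median of the list was 0.32. Without KO 2, *Sox2* (0.59, limma adjusted p = 0.0268) and *Pou3f4* (0.82, adjusted p = 0.00129) were called higher beside the lower *Sox1*. The part of these factors in the *Nes* level was not tested.

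**Figure D5:**
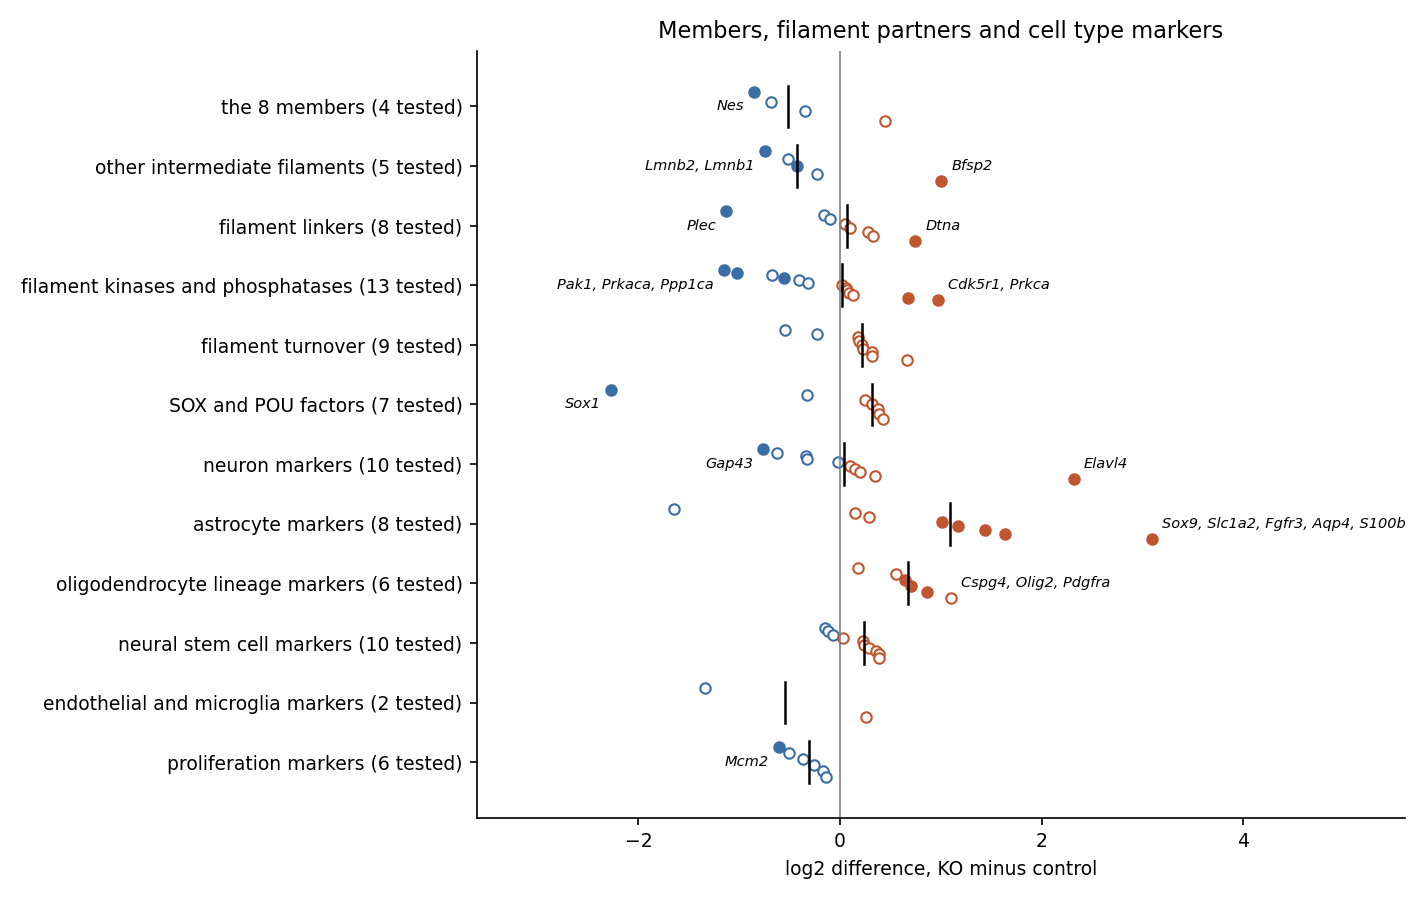
Log2 difference, KO minus control, of every tested gene of the intermediate filament set, of the lists of partners and of the cell type markers, filled and named where the limma adjusted p is under 0.05, with the median of each list as a black bar. *Nes* is the 1 filled point of 4 in the top row, while 5 of the 8 astrocyte markers are filled and higher.

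Genes listed as markers of other cell types also moved with the labels, but the lists are not exclusive. *Slc1a3* is on both the astrocyte and stem cell lists, and *Sox9* and *Olig2* already had 4272 and 5157 normalized counts in control. *Gfap*, *Gjb6*, *Sox10* and *Mog* stayed under the filter. The sums below therefore do not measure numbers of cells. Of 10 astrocyte markers, 8 passed the filter and 5 were called higher, with *S100b* at a log2 difference of 3.10 (limma adjusted p = 7.39e-07), *Fgfr3* at 1.44, *Aqp4* at 1.64, *Slc1a2* at 1.16 and *Sox9* at 1.01, and the summed level was 12591 to 14091 in control and 20662 to 24263 in KO. *S100b* overlaps the antisense gene *Dip2a*, which had a mean of 144 normalized counts, against 238 for *S100b* in control and 2064 in KO. *Aqp4* rests on 6 to 12 reads in a control library. *Aldh1l1*, a folate enzyme of astrocytes, had 17.3 ± 2.34 in control and 5.35 ± 3.30 in KO without overlap (-1.65, limma adjusted p = 0.0650), and was called lower without KO 2 (-2.04, adjusted p = 0.0235). Of 8 oligodendrocyte lineage markers, 6 passed and 3 were called higher (*Olig2*, *Pdgfra* and *Cspg4*), with sums of 12488 to 14404 and 17236 to 19639. Of 12 neuron markers, 10 passed, *Elavl4* was called higher (2.32) and *Gap43* lower (-0.76), *Stmn2* was at 0 in every library, and the sums were 18199 to 19474 and 15875 to 18049. Of the 10 tested, 5 were lower and 5 higher (median log2 difference 0.04). *Gap43* fell from 8711 to 5196, while the most abundant marker, *Map2*, went from 9210 to 10541 without overlap (0.19, limma adjusted p = 0.337). The sums therefore do not describe the list as a set. All 6 proliferation markers had a log2 difference below 0 (median -0.31), and *Mcm2* was called (-0.61), joined by *Ccna2* without KO 2 (-0.50, limma adjusted p = 0.0341) and by *Pcna* without KO 3 (-0.60, adjusted p = 0.0485), with sums of 24470 to 26385 and 19788 to 22327. Some of these calls did not survive the loss of 1 library in limma: *Aqp4* without KO 2_2, control 1 or control 1_1 (adjusted p = 0.107, 0.0834 and 0.0821), *Pdgfra* without KO 2_2 or control 2 (0.0696 and 0.0703) and *Gap43* without control 2 (0.0572). *Cspg4* lost its call without KO 3 or any 1 control library (0.0621 to 0.121), and *Mcm2* without KO 2_2, control 1 or control 2 (0.0580 to 0.0812). The part of these shifts in the lower *Nes* level was not tested.

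Most markers of cells outside the central neural lineage were low. None of 8 fibroblast and pericyte markers passed the filter, and they summed to 3.67 to 12.0 normalized counts in control and 8.31 to 23.3 in KO, far below *Vim*, which such cells also express. The most abundant of them were *Lum* and *Acta2*, and *Col1a2* and *Pdgfrb* were at 0 in every library. Of 8 peripheral neuron markers, 0 passed and 4 were at 0, with sums of 0.918 to 2.93 and 3.46 to 6.89, led by *Pou4f1* and *Scn10a*. Of 8 endothelial and microglia markers, *Csf1r* (log2 difference 0.26) and *Kdr* (-1.34, limma adjusted p = 0.0677) passed the filter and neither was called, with sums of 192 to 243 and 175 to 279. Over all 13 lists, 82 of 123 genes were tested, 9 were called lower and 13 higher, with a median log2 difference of 0.11. Over all genes tested, 5.22% were called lower and 4.74% higher. The lists were chosen with earlier results of these data known, so their counts are a description only.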

How the data were processed

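RNA libraries were made with a TruSeq kit, which does not mark strand. The methods name TopHat with mm9 and mm10, and the submitters' processing notes name STAR 2.7, DESeq2 and mm10; the read counter, annotation and use of strand are not given in the sources used here. The authors deposited normalized counts, a signal obtained by dividing read counts by 1 size factor per library. Further deposited columns give, from the authors' own comparison, a log2 fold change and its standard error, a Wald statistic (a score) and p-values, and none of these was used. It has 53379 rows, 873 without a gene name, and 1 was left out for a missing value.

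Log2(normalized count + 1) of genes with a mean of at least 10 was compared between 3 control and 3 KO libraries with limma 3.58.1 (R 4.3.3, trended eBayes, two-sided), with Benjamini-Hochberg adjustment over all 14840 genes and a threshold of 0.05. Fold changes of low genes are understated on this scale. Whole reads were recovered from the value of 1 read in each library; 100% of values came out within 0.1 of a whole number. On those reads edgeR 4.0.16 (quasi-likelihood) called 1483 genes and DESeq2 1.42.0 called 1755, against 1478 for limma. Other alternatives changed the pseudocount, filter, scaling, averaging of similarly numbered libraries, the libraries included and, added after seeing the data, a block on the replicate digit. The fits were tested on simulated data. Exact permutation tests used scipy 1.17.1.

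GRCm38 positions are from RefSeq; exon lengths and overlaps are from GENCODE M1 (mm9). Motifs were exact letter matches on both strands.

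The members and lists were chosen with earlier results of these data known. The text names all 8 filament genes, the 3 genes most like each called one, the called genes of each list or, where none was called, its 2 most abundant genes, and *Tbl1xr1*. Genes named beyond that rule (*Gfap*, *Dst*, *Macf1*, *Cdk1*, *Plk1*, *Bag3*, *Hes1*, *Aldh1l1*, *Ccna2*, *Pcna*, *Pou3f2*, *Pou3f4*, *Sox2* in its factor list, *Des*, *Stmn2*, *Col1a2* and *Pdgfrb*) were chosen after their values were seen. The same holds for *Slc1a3*, *Gjb6*, *Sox10*, *Mog*, *Prom1* and *Map2*. *Nt5c2*, *Rad9* and *Dip2a* are named for their overlap with a named gene. *Eppk1* had no row.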

Additional observations from a re-analysis of the deposited data

How the results depend on the processing

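*Nes* was the 1 filament gene called under 17 alternatives, and in these *Vim*, *Synm* and *Ina* kept their direction and stayed short of the threshold wherever they were tested. The shares of *Nes* and *Vim* per kb moved by less than 1 SD with longest transcript lengths. The number of genes called over the whole table was less stable: 1478 became 660 with control 1 and 1_1 averaged into 1 library and 2380 at an adjusted p under 0.1, and with each library left out it ranged from 558 (without control 1) to 2396 (without KO 2). It was 724 without KO 2_2, 704 without control 1_1 and 643 without control 2. The 22 calls on the lists ranged from 14 (without control 1) to 31. *Exo1*, named for its likeness to *Nes*, lost its call in 3 of 16 alternatives. A replicate block on the first digit of the number, added after seeing the data, rests on control 2 against KO 2 and KO 2_2 and shares only a number, not a stated culture. It called 0 filament genes, 180 genes in all and 10 on the lists. In it the log2 difference was -0.55 for *Nes* (limma adjusted p = 0.182) and -0.36 for *Synm* (adjusted p = 0.855), whose sign reversed. The cause of these shifts was not tested. Depth limits *Synm*, *Ina* and the 4 genes under the filter, which rest on 23 reads or fewer in a library, and 3 libraries a group cannot give an exact permutation p below 0.1.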

Other observations

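Among intermediate filament genes under the filter, *Des*, the gene for desmin of muscle, had 25 reads over the 3 control libraries and 4 over the 3 KO libraries, with normalized counts of 9.18 to 10.7 and 0 to 2.08. The few neurofilament reads were unevenly spread: KO 2_2 held 11 of the 16 KO reads of *Nefm* and all 3 of *Nefl*, and its normalized count of *Gfap* (10.3) was the highest of the 6 libraries. The same library had the highest *Ina* value in KO (18.9). These genes were named after their values were seen, and these values were not tested.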
